A study of Mus musculus with 4 samples.

Results

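The genes described here are 9 genes that define the Sertoli cell of the testis or carry its hormone signals: the transcription factor genes Sox9, Wt1, Gata1, Gata4 and Dmrt1, the receptor gene Fshr, and the hormone genes Amh, Inha and Inhbb. They were chosen by symbol, and each of the 9 matched exactly 1 of the 26068 entries with a gene name in the deposited expression table. Total RNA of whole testes was sequenced from male mice of the hybrid strain B6D2F1 at 24 days of age. There were 2 libraries from testes homozygous for the Adad2 knockout and 2 from wild type testes of the same strain and age. The product of Adad2 is a protein of germ cells that carries a deaminase-like domain, and the series title ties it to piRNA production and to the shaping of sperm. The labels do not give the design of the knockout allele, and they do not say whether the libraries come from separate animals, so the spread behind the p-values below may be technical only.

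Sertoli cells are the somatic cells of the seminiferous tubule that enclose and nourish the germ cells. SOX9, WT1, GATA4 and DMRT1 set up and keep their identity, and the pituitary hormone FSH acts on them through its receptor. In return they secrete inhibin B, a dimer of the products of Inha and Inhbb, which lowers FSH release. Anti-Müllerian hormone, the product of Amh, is made in quantity by immature Sertoli cells and much less after puberty. The cells of this whole tissue were not separated, so fewer Sertoli cells and less RNA per Sertoli cell cannot be told apart, and the same holds for more.

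All 9 genes had a mean above 1 RPKM (reads divided by gene length and by library size), the limit set for testing, and so were among the 13414 genes tested. The targeted gene fell in the knockout: Adad2 stood at 3.73 and 3.30 log2 RPKM in the knockout libraries and at 4.66 and 4.47 in the wild type libraries, a change of -1.05 (SE 0.16, limma adjusted p = 0.00604; 0.143 without wild type replicate 1 and 0.0838 without wild type replicate 2). Depth was about 29400000 to 36900000 reads per library, as estimated from what 1 read is worth. At that depth the 9 genes rested on an estimated 137 reads (Fshr in wild type replicate 1) to 6102 reads (Inha in knockout replicate 1). Over all genes tested, 163 were higher and 959 lower in the knockout, and leaving out wild type replicate 1 left 0 calls by limma (2357 genes had an unadjusted p under 0.05).

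The sequences before the start sites of Fshr and Inhbb are shown because these are the receptor and the hormone subunit with the highest changes, and because their RefSeq windows begin at the 5′ end that Gencode M21 gives the gene. Each is the 250 bases before the start site, 5′ to 3′ on the gene's strand, from RefSeq on GRCm38.p6, with Fshr at chr17:89200676-89200925 (minus strand) and Inhbb at chr1:119422249-119422498 (minus strand). Capitals mark matches on either strand to the E box motif, spelled CACGTG, to the core motif of the GATA factors, which is GATA itself, and to their longer motif, spelled AGATAA or AGATAG or TGATAA or TGATAG, which contains that core.
Fshr: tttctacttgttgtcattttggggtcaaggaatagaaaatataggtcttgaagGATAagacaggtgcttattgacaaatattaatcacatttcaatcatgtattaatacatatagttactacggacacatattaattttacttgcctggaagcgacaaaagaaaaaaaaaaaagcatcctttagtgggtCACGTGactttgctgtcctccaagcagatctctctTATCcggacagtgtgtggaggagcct
Inhbb: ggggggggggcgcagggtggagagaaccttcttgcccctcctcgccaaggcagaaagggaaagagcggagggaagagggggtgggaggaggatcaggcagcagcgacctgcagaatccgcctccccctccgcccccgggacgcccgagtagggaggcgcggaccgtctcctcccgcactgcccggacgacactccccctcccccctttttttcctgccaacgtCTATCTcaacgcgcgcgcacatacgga
The Fshr window held 1 E box, 61 bases before the start site, a motif found in 6.02% of all 32851 RefSeq windows of this length. It also held 2 GATA cores, 197 and 26 bases before the start, a motif found in 53.6% of windows. The Inhbb window held 1 longer GATA site, 27 bases before the start, found in 26.5% of windows. Neither window held an SF-1 site (AAGGTCA), a SOX site (AACAAT) or a cyclic AMP response element (TGACGTCA), which 4.08%, 9.42% and 1.55% of windows held. Base composition differed, at 36.8% G and C for Fshr and 68% for Inhbb beside a median of 52.4% over all windows. For Gata1 and Inha the listed window lies 10161 and 532 bases downstream of the gene's 5′ end, so they are not shown, and no window was listed for the other 5 genes. A match is a run of letters and not a measured binding site.

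None of the 9 genes passed the test between genotypes, and all 9 had a change above 0. Over the 9, limma called 0 higher and 0 lower at a Benjamini-Hochberg adjusted p under 0.05, where 1.22% of all genes tested were called higher and 7.15% lower, and 5 of the 9 had an unadjusted p under 0.05, as did 3616 of the 13414 genes tested in either direction. The changes ran from 0.18 (Amh) to 0.48 (Fshr) on the log2 scale, which is 1.13-fold to 1.40-fold, with a median of 0.25. All genes tested together had a median of 0.14, with 71.8% of them above 0. In 8 of the 9 genes both knockout libraries lay above both wild type libraries, an order that 46.4% of all genes tested also showed, and in none of the 9 did they lie below both, which 16.8% of all genes tested did. The 95% confidence interval lay above 0 in 5 of the 9 genes (Gata1, Fshr, Wt1, Inhbb and Gata4), against 15.6% of all genes tested. With 2 libraries against 2, an exact permutation test of a single gene cannot give a two-sided p below 0.333. Leaving out knockout replicate 1 made 1 of the 9 genes, Inhbb, pass (adjusted p = 0.0356), and leaving out any other single library made none pass. A fit without 1 knockout library can measure a gene's own spread in the wild type pair only. Its p-values then rest mostly on the spread limma takes from all genes tested. It also assumes that the lone knockout library varies alike, so this call is weak.

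**Figure D1:**
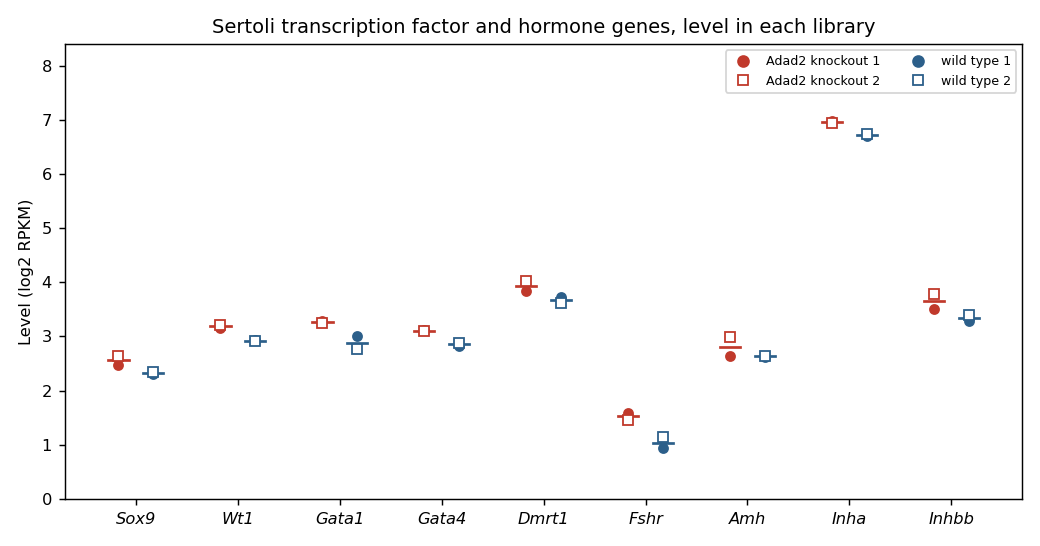
Level of each of the 9 genes in log2 RPKM (vertical axis) in the 2 Adad2 knockout libraries (red, left) and the 2 wild type libraries (blue, right); circles are replicate 1, squares replicate 2, and short lines are group means. The knockout points lie above the wild type points for every gene except Amh, where knockout replicate 1 (2.64) lies at the level of the wild type libraries.

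SOX9, an HMG-box factor, drives the first steps of Sertoli cell fate. Sox9 (chromosome 11, 112643538 to 112649074, plus strand, mm9) stood at 2.48 and 2.65 log2 RPKM in the knockout libraries and at 2.30 and 2.34 in the wild type libraries. The groups did not overlap, and the gap between the nearest libraries was 0.14. The change was 0.24 (SE 0.12, limma adjusted p = 0.223), and it was 0.32 without knockout replicate 1 and 0.16 without knockout replicate 2.

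WT1 is a zinc finger factor needed to keep Sertoli cells from losing their identity. Wt1 (chromosome 2, 104966686 to 105013773, plus strand) stood at 3.15 and 3.22 log2 RPKM in the knockout libraries and at 2.93 and 2.91 in the wild type libraries. Its replicates were close in both groups, with SDs of 0.04 in the knockout and 0.01 in wild type, and the gap between the groups was 0.23. The change was 0.27 (95% confidence interval 0.03 to 0.50, adjusted p = 0.148).

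GATA1 and GATA4 are zinc finger factors that bind the same short motif. In the mouse testis GATA1 is found in Sertoli cells from the first wave of spermatogenesis onward and depends there on the stage of the tubule, while GATA4 is present from the fetal gonad on. Gata1 (X chromosome, 7536386 to 7555197, minus strand) stood at 3.29 and 3.24 log2 RPKM in the knockout libraries and at 3.003 and 2.76 in the wild type libraries. Both knockout libraries were higher than both wild type libraries, and the wild type pair differed by more than the knockout pair. The change was 0.38 (SE 0.12, 95% confidence interval 0.11 to 0.65, limma adjusted p = 0.095), the smallest p of the 9 genes. Gata4 (chromosome 14, 63817759 to 63890529, minus strand) stood at 3.11 and 3.10 log2 RPKM in the knockout libraries and at 2.83 and 2.88 in the wild type libraries. The knockout libraries agreed to within 0.02 and lay above the wild type libraries, with a change of 0.25 (SE 0.10, adjusted p = 0.166).

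Within a library, Gata1 had 1.13 and 1.10 times the RPKM of Gata4 in the knockout libraries, and 1.13 and 0.919 times in the wild type libraries. The ratio was the same to 3 digits in wild type replicate 1 and knockout replicate 1, so the balance of the 2 factors did not separate the genotypes. GATA1 also marks red blood cell precursors and mast cells. The 12 erythroid and mast cell markers summed to 39.6 and 51.0 RPKM in the knockout libraries and to 107 and 51.6 RPKM in the wild type libraries, where Hbb-b1, a globin gene, was highest in wild type replicate 1 at 4.93 log2 RPKM. Of these 12, 7 missed the test limit, and the 4 mast cell genes among them lay between -6.82 and -5.02 log2 RPKM in every library. Of the 5 tested, limma called 0, and 0 had an unadjusted p under 0.05. Over all genes tested, 1.22% were called higher and 7.15% lower, and 3616 of 13414 had an unadjusted p under 0.05. Alas2, of haem synthesis, was the 1 of the 5 with a change above 0, beside 71.8% of all genes tested. The others of the 5 were globin genes, each highest in wild type replicate 1, so they are not separate evidence. The part of such cells in the Gata1 level was not tested.

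DMRT1, a DM domain factor, keeps Sertoli cells male after birth and is also made in spermatogonia, where it holds back entry into meiosis. Dmrt1 (chromosome 19, 25580108 to 25678819, plus strand) stood at 3.83 and 4.02 log2 RPKM in the knockout libraries and at 3.73 and 3.62 in the wild type libraries. The groups did not overlap, but the gap of 0.10 was smaller than the difference between the 2 knockout libraries. The change was 0.25 (SE 0.11, limma adjusted p = 0.19), and it was 0.35 without knockout replicate 1 and 0.16 without knockout replicate 2. Where 71.8% of all genes tested lay above 0, 12 of 13 spermatogonial markers tested did in the same libraries, with a median change of 0.23. Limma called 0 of these 13, and 4 had an unadjusted p under 0.05. Over all genes tested, 1.22% were called higher and 7.15% lower, and 3616 of 13414 had an unadjusted p under 0.05. Dmrtb1, the most abundant of the markers, had a change of -0.05. All 17 markers listed, including 4 not tested, summed to 353 and 354 RPKM in the knockout libraries and to 311 and 338 RPKM in the wild type libraries. Their part in the Dmrt1 level was not tested.

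FSHR, a receptor coupled to G proteins, is made in the testis by Sertoli cells. Fshr (chromosome 17, 89384292 to 89600015, minus strand) stood at 1.58 and 1.47 log2 RPKM in the knockout libraries and at 0.94 and 1.14 in the wild type libraries. Those values are 2.996 and 2.76 RPKM in the knockout libraries against 1.92 and 2.20 RPKM in the wild type libraries. The groups were separated by 0.33, the widest gap of the 9 genes. The change was 0.48 (SE 0.16, 95% confidence interval 0.13 to 0.84, adjusted p = 0.106). Fshr was also the least abundant of the 9 genes, on an estimated 233 and 192 reads in the knockout libraries and 137 and 192 reads in the wild type libraries. Its change exceeded that of 97.1% of all genes tested.

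The hormone genes had changes of different precision. Inha, which encodes the inhibin alpha subunit (chromosome 1, 75503652 to 75506941, plus strand), stood at 6.97 and 6.94 log2 RPKM in the knockout libraries and at 6.70 and 6.73 in the wild type libraries. Replicates differed by little in both groups (SD 0.02 each), and the change was 0.24 (95% confidence interval -0.002 to 0.48, limma adjusted p = 0.188). Inhbb, which encodes the beta B subunit (chromosome 1, 121312042 to 121318825, minus strand), stood at 3.52 and 3.78 log2 RPKM in the knockout libraries and at 3.29 and 3.39 in the wild type libraries. Here the knockout libraries differed by more than the gap between the groups, which was 0.13. The change was 0.31 (SE 0.12, adjusted p = 0.154), and it was 0.44 without knockout replicate 1 and 0.18 without knockout replicate 2.

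Per length, the Inha transcript outnumbered that of Inhbb, its partner in inhibin B. The ratio of RPKM was 10.96 and 8.90 in the knockout libraries and 10.6 and 10.1 in the wild type libraries. The knockout ratios lay on either side of the wild type ratios. Inhba, which encodes the other beta subunit and gives inhibin A, missed the test limit at -3.44 and -2.06 log2 RPKM in the knockout libraries and -2.00 and -3.87 in the wild type libraries.

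Amh was the 1 gene of the 9 whose groups overlapped. Amh (chromosome 10, 80267993 to 80270393, plus strand) stood at 2.64 and 2.98 log2 RPKM in the knockout libraries and at 2.63 and 2.65 in the wild type libraries. Knockout replicate 1 lay between the wild type libraries and knockout replicate 2 above them. The change was 0.18 (SE 0.14, 95% confidence interval -0.14 to 0.49, adjusted p = 0.398), and 1 library decided it: it was 0.003 without knockout replicate 2 and 0.35 without knockout replicate 1.

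**Figure D2:**
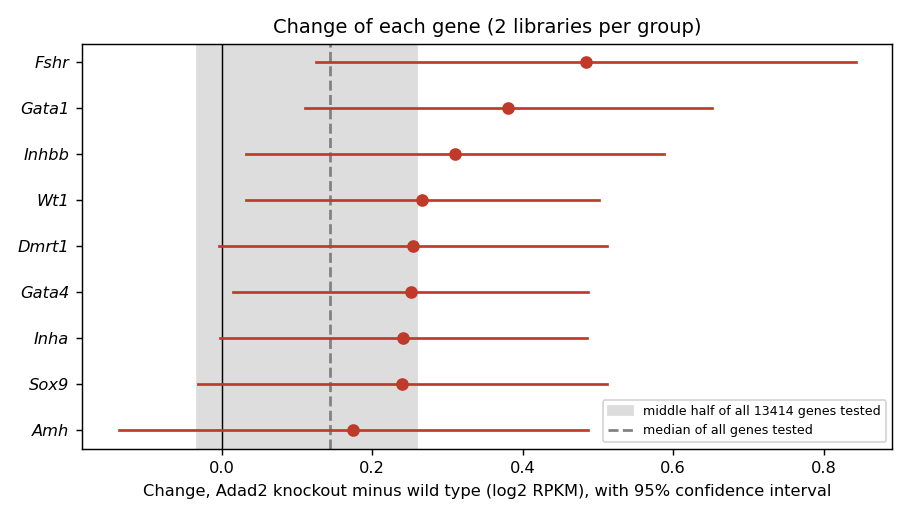
Change of each gene between Adad2 knockout and wild type on the log2 RPKM scale (horizontal axis), with limma's 95% confidence interval, 2 libraries per group. The grey band is the interquartile range of all 13414 genes tested and the dashed line their median of 0.14; Fshr (0.48), Gata1 (0.38), Inhbb (0.31) and Wt1 (0.27) lie to the right of the band, and the intervals of Dmrt1, Inha, Sox9 and Amh include 0.

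The order of levels per length was nearly the same in both genotypes. In the knockout it ran Inha (mean 124 RPKM), Dmrt1 (15.3), Inhbb (12.6), Gata1 (9.60), Wt1 (9.10), Gata4 (8.62), Amh (7.07), Sox9 (5.92) and Fshr (2.88). In wild type it ran Inha (mean 104.9 RPKM), Dmrt1 (12.8), Inhbb (10.1), Wt1 (7.56), Gata1 (7.40), Gata4 (7.25), Amh (6.22), Sox9 (5.01) and Fshr (2.06). Neighbours whose libraries overlapped, and whose order is therefore not set, were Amh and Sox9 in the knockout, and Wt1, Gata1 and Gata4 in wild type. Inha, above 98.7% of all genes tested in mean level, stood far apart from the other 8, which lay within the range of 2.06 to 15.3 RPKM.

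To set the 9 genes against other Sertoli transcripts, each was expressed relative to the mean of 20 Sertoli secreted and junction genes in the same library. That mean was 4.94 and 5.04 log2 RPKM in the knockout libraries and 4.79 and 4.73 in the wild type libraries, a difference of 0.23. On this relative scale 8 of the 9 genes overlapped between the genotypes. The share of all genes tested that do so on this scale was not computed, so the count has no background to stand beside. The relative difference was 0.01 for Sox9 and for Inha, 0.02 for Gata4 and for Dmrt1, 0.04 for Wt1, 0.08 for Inhbb, 0.15 for Gata1 and -0.05 for Amh. Fshr was the 1 gene that remained apart, at -3.36 and -3.57 in the knockout libraries and -3.85 and -3.59 in the wild type libraries, a relative difference of 0.25. The nearest Fshr libraries, knockout replicate 2 and wild type replicate 2, differed by less than the replicates of either group did.

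The cystatin gene Cst9, part of that reference, stood in 1 library far from its own values elsewhere. It was at 4.73 log2 RPKM in knockout replicate 1 against 6.77 in knockout replicate 2, and 6.55 and 6.48 in the wild type libraries. Without Cst9 the relative difference was 0.20 for Fshr and 0.10 for Gata1, it was -0.11 for Amh, and that of Sox9, Wt1, Gata4, Dmrt1 and Inha turned to between -0.04 and -0.02.

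**Figure D3:**
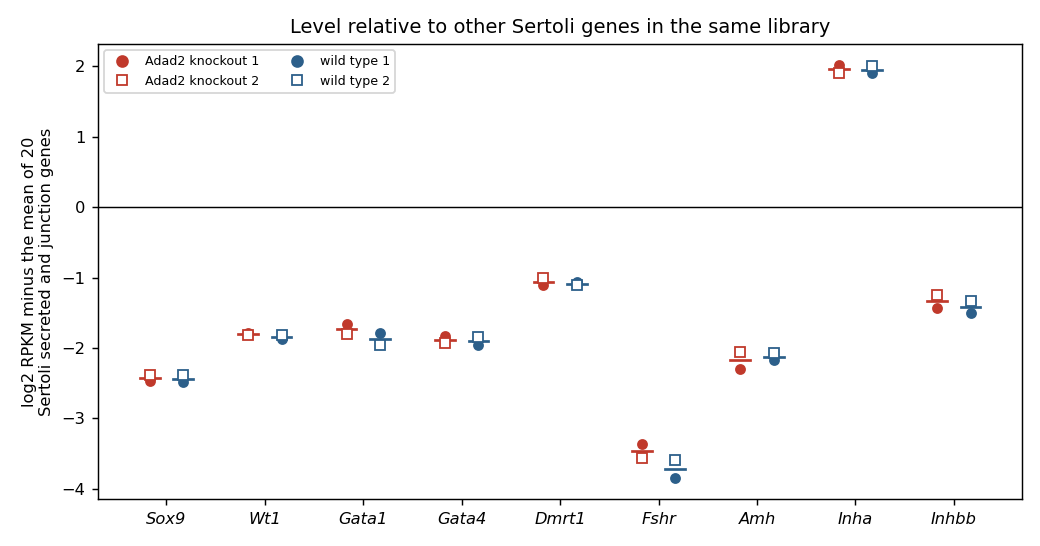
Level of each of the 9 genes in log2 RPKM minus the mean of 20 Sertoli secreted and junction genes in the same library (vertical axis), for Adad2 knockout (red, left) and wild type (blue, right), with group means as short lines. Knockout and wild type points interleave for each gene except Fshr, where the knockout libraries (-3.36 and -3.57) lie above the wild type libraries (-3.85 and -3.59).

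Among those 20 secreted and junction genes, 4 rose and 0 fell, with a median change of 0.31 and 18 above 0. Over all genes tested, 1.22% rose, 7.15% fell and 71.8% lay above 0. Ocln, which encodes the tight junction protein occludin, was 1.56-fold higher (1.73 and 1.78 log2 RPKM in the knockout libraries, 1.15 and 1.07 in the wild type libraries, limma adjusted p = 0.0262). Mro was 1.39-fold higher (adjusted p = 0.0271), Defb36, a beta-defensin gene, 1.33-fold higher (0.0471) and Espn, which encodes an actin-bundling protein, 1.32-fold higher (0.0462). None of the 4 passed without wild type replicate 1 (adjusted p from 0.169 to 0.183) or without wild type replicate 2 (0.121 to 0.185). Mro, Espn and Defb36 also missed it without knockout replicate 1 (0.0551, 0.0558 and 0.17), and Espn and Defb36 without knockout replicate 2 (0.119 and 0.0927). All 4 missed it with no filter on low values (0.0661 to 0.101), and Mro, Espn and Defb36 in limma without trend and robust estimation (0.0703, 0.0995 and 0.0964).

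Other genes of Sertoli identity, and cofactors of the 9 factors, were listed as 20 genes, of which 15 were tested. Of these limma called 0, and 6 had an unadjusted p under 0.05. Over all genes tested, 1.22% were called higher and 7.15% lower, and 3616 of 13414 had an unadjusted p under 0.05. Beside 71.8% of all genes tested, 13 of the 15 lay above 0, with a median change of 0.26. The most abundant were Tsx, a gene of the X chromosome, with a change of 0.26 (adjusted p = 0.171), and the homeobox gene Rhox8, with a change of 0.37 (adjusted p = 0.0701). Chosen after its values were seen, Zfpm2, which encodes FOG2, the cofactor that binds GATA4, stood at 0.75 and 0.25 log2 RPKM in the knockout libraries and at -0.07 and -0.32 in the wild type libraries. It entered the test through its knockout mean of 0.50, as its wild type mean of -0.20 lay below the limit. Its change of 0.70 did not pass (limma adjusted p = 0.124). Its relative Zfpm1, which encodes FOG1, the cofactor that binds GATA1, overlapped between the genotypes, with a change of 0.10 (adjusted p = 0.574).

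Where 7.15% of all genes tested fell, 1 of the 4 tested among 6 GATA family genes did, Gata2. Besides Gata1 and Gata4 these were Gata2, a factor of blood and endocrine cells, and Gata6, a relative of Gata4 made in Sertoli and Leydig cells. Gata2 stood at 0.18 and -0.56 log2 RPKM in the knockout libraries and at 1.46 and 0.97 in the wild type libraries. It entered the test through its wild type mean of 1.21, as its knockout mean of -0.19 lay below the limit. It was the 1 member of the family to pass the test, 2.64-fold lower in the knockout (adjusted p = 0.03), and it missed it without wild type replicate 1 (0.266), without wild type replicate 2 (0.138) and with no filter on low values (0.115). Gata6 had a change of -0.09 (adjusted p = 0.666).

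Of 8 DMRT family genes 6 were tested, 0 were called by limma and 3 had an unadjusted p under 0.05. Over all genes tested, 1.22% were called higher and 7.15% lower, and 3616 of 13414 had an unadjusted p under 0.05. Of the 6, 4 lay above 0, beside 71.8% of all genes tested, for a median of 0.21. The most abundant relatives of Dmrt1 were the germ cell genes Dmrtb1 (7.27 and 7.17 log2 RPKM in the knockout libraries, 7.14 and 7.40 in the wild type libraries) and Dmrtc2 (5.38 and 5.46 in the knockout libraries, 5.22 and 5.29 in the wild type libraries). Dmrtb1 overlapped between the genotypes, unlike Dmrt1.

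The inhibin, activin and AMH pathway was listed as 20 further genes, ligands, binding proteins, receptors and SMAD transducers, of which 12 were tested. Of these 0 were called by limma, 1 had an unadjusted p under 0.05 and 12 lay above 0. Over all genes tested, 1.22% were called higher and 7.15% lower, and 3616 of 13414 had an unadjusted p under 0.05. The 12 had a median of 0.18, beside 0.14 for all genes tested, of which 71.8% lay above 0. Amhr2, the receptor of anti-Müllerian hormone, was the most abundant, at 7.01 and 7.06 log2 RPKM in the knockout libraries and 6.90 and 6.81 in the wild type libraries (change 0.18, adjusted p = 0.302). Smad4, the transducer that the activin and AMH branches share, had a change of 0.18 (adjusted p = 0.36). The activin antagonist Fst missed the test limit.

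Genes that carry or answer the FSH signal were listed as 19, of which 18 were tested. Of these 2 fell and 0 rose, with a median change of 0.17 and 15 above 0. Over all genes tested, 7.15% fell and 71.8% lay above 0. Nr4a1, an immediate-early nuclear receptor gene, stood at 1.76 and 1.81 log2 RPKM in the knockout libraries and at 2.32 and 2.56 in the wild type libraries, 1.58-fold lower (adjusted p = 0.0183). Crem, a cyclic AMP responsive factor most abundant in spermatids, was 1.37-fold lower (adjusted p = 0.0313). Both missed the threshold without wild type replicate 1 (0.108 for Nr4a1, 0.164 for Crem) and without wild type replicate 2 (0.175 and 0.18), and with no filter (0.0621 and 0.0823), and Crem also without knockout replicate 2 (0.0845) and in limma without trend and robust estimation (0.0794). Neither is made by Sertoli cells alone.

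**Figure D4:**
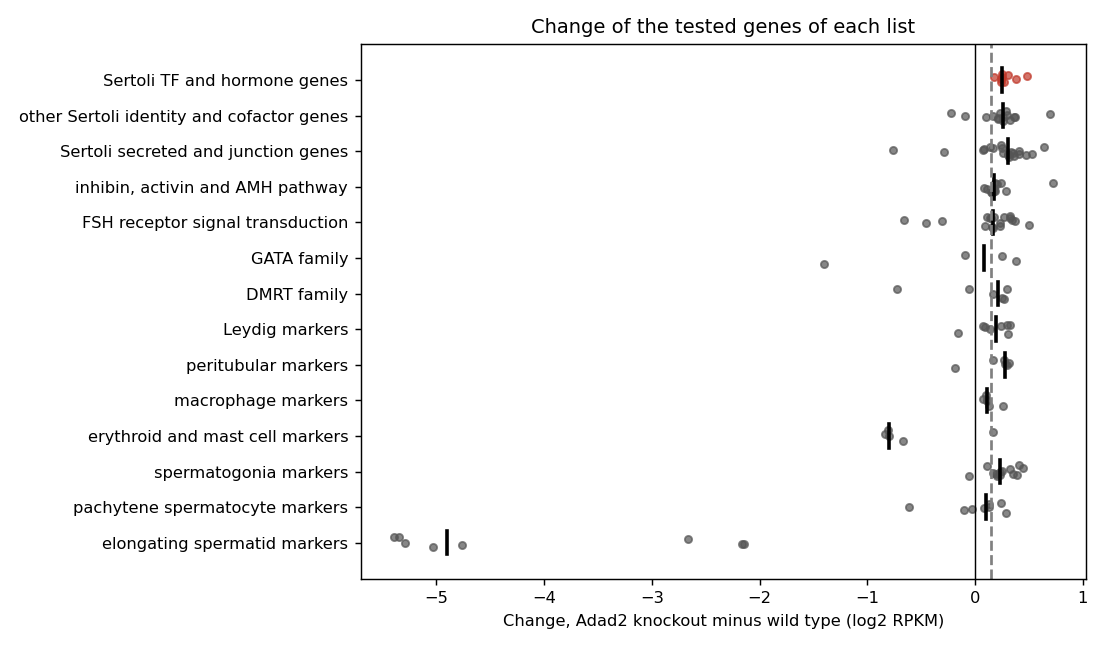
Change between Adad2 knockout and wild type on the log2 RPKM scale (horizontal axis) for each tested gene of 14 lists, with the list's median as a black bar and the median of all genes tested, 0.14, as a dashed line. The 9 Sertoli transcription factor and hormone genes (red) lie between 0.18 and 0.48. Their median of 0.25 is near those of the other Sertoli lists (0.26 and 0.31), and of peritubular (0.27) and spermatogonia (0.23) markers. Elongating spermatid markers have a median of -4.90.

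Markers of other testis cells differed in how they stood between the genotypes. The 8 elongating spermatid markers summed to 103 and 58.0 RPKM in the knockout libraries and to 930 and 881 in the wild type libraries. Where 7.15% of all genes tested fell, 7 of these 8 did. Among them Akap4, which encodes an anchoring protein of the flagellum, was 6.35-fold lower (adjusted p = 0.00126; 0.0552 without wild type replicate 1). Spem1, which also fell, entered the test through its wild type mean of 3.76, as its knockout mean of -1.01 lay below the limit. Since RPKM is a share of all reads, a loss of abundant transcripts raises the share of the others. The part of this in the values of the 9 genes was not tested. Of 8 pachytene spermatocyte markers 1 fell, Pgk2, a germ cell glycolysis gene. Beside 71.8% of all genes tested, 5 of the 8 were above 0, with a median of 0.10. Pgk2 was 1.53-fold lower (adjusted p = 0.0216; 0.179 without wild type replicate 1, 0.144 without wild type replicate 2, 0.171 without knockout replicate 2, 0.0701 with no filter and 0.055 in limma without trend and robust estimation).

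Among somatic lists, 0 of 8 Leydig, 0 of 6 peritubular and 0 of 6 tested macrophage markers were called by limma, and 1, 2 and 0 of them had an unadjusted p under 0.05. Over all genes tested, 1.22% were called higher and 7.15% lower, and 3616 of 13414 had an unadjusted p under 0.05. At those shares, 0 calls in lists this short do not show that these cells were unchanged. The median changes of these lists were, in the same order, 0.19, 0.27 and 0.11. Leydig cells also express Gata4 and Inha. Their markers summed to 346 and 493 RPKM in the knockout libraries and to 292 and 435 RPKM in the wild type libraries, with replicate 2 higher in both groups and the genotypes overlapping. Among the 8, Nr5a1, which encodes SF-1 and is also made in Sertoli cells, was the 1 whose groups lay apart, at 3.56 and 3.66 log2 RPKM in the knockout libraries and 3.34 and 3.23 in the wild type libraries (limma adjusted p = 0.104). Such a separation is common here, as 46.4% of all genes tested lay apart with the knockout higher and 16.8% with it lower. The part of Leydig cells in the Gata4 and Inha levels was not tested. Peritubular markers summed to 111 and 99.5 RPKM in the knockout libraries and to 89.9 and 82.7 RPKM in the wild type libraries. The 7 macrophage markers with an entry, including 1 not tested, summed to 34.6 and 37.8 RPKM in the knockout libraries and to 31.8 and 34.9 RPKM in the wild type libraries.

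The genes nearest to the mean of the 9 genes' centred values over the 4 libraries, by Euclidean distance among 13414 genes tested, were Tmem101, Serinc1, Rab12, Nudc and Zfp281, at distances of 0.003 to 0.021. Their changes ran from 0.28 to 0.30, which the choice by distance set in advance, and none passed the test (limma adjusted p from 0.127 to 0.147).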

How the data were processed

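The authors deposited 1 table of log2 RPKM values for 26127 entries with mm9 coordinates. Per the submitters' processing notes, bcl2fastq 2.17.1.14 and Bowtie2 were used with mm9. Which counting tool, annotation and strand setting were used is not given in the sources used here. The columns named control and null were assigned by genotype and replicate number. In the deposited log2 RPKM values, genes without reads carry 0.9 of a read in place of 0. Depth was estimated from single-exon genes, where 95.1% to 96.9% of the values below about 10 reads came within 2% of a whole number. Reads per gene are estimates from exon lengths of Gencode M21. The 59 entries (0.226%) without a gene name were left out.

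Genes with a mean of at least 0 (1 RPKM) were tested with limma 3.58.1 (trend and robust estimation, statmod 1.5.0, R 4.3.3), as an unpaired two-sided comparison, and p-values were adjusted over all 13414 genes (Benjamini-Hochberg, threshold 0.05). The fit was checked on simulated data in which the spreads of the genes were shuffled. That check required only that upward changes added to some genes came back near their size on average. It therefore does not bear on the calls made here. The genes and lists were chosen with earlier results of these data known. Beyond the 9 genes, the rule for named genes took members of a list past the threshold (at most 4), otherwise the 2 most abundant, and the 5 genes of nearest profile. For some lists fewer or none are named, and Alas2, Cst9, Fst, Gata6, Inhba, Nr5a1, Zfpm1 and Zfpm2 were named outside the rule, after their values were seen. Alternatives were other filters, scalings, pseudocounts and variance models, the replicate number as a block, and leaving out each library.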

Additional observations from a re-analysis of the deposited data

How the results depend on the processing

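All 9 genes kept a change above 0 in each of the 98 values recomputed under 11 alternatives (Fshr was not tested at the filter of 2 on the log2 scale). In 94 of these the gene stayed on the same side of the threshold. None of the 9 was called lower under any alternative. The count of the 9 called higher was 0 in each fit of all 4 libraries without the replicate block. With the block it was 3 (Gata1, Fshr and Inhbb, limma adjusted p = 0.00423, 0.0117 and 0.0209). Over all genes, the higher count of 163 became 97 with no filter, 245 after quantile normalization and 1837 with the replicate block, and 0 to 494 when 1 library was left out. The lower count of 959 became 637 at a mean of at least 2 and 1477 with the replicate block, and 0 to 1308 when 1 library was left out. The cause was not tested. With the replicate block, 4 libraries leave little to measure a gene's own spread. Its p-values then rest mostly on the spread limma takes from all genes tested, so the 3 calls among the 9 genes are weak. Deviations of libraries with the same number correlated at r = 0.33 across genes, from 2 pairs, which does not show that numbers pair the samples. Beside the median change of 0.25, the 2 knockout libraries differed by a median of 0.12 and by up to 0.34 over the 9 genes, and the 2 wild type libraries by a median of 0.053 and by up to 0.24 (log2 scale). Fshr has the fewest reads behind it. Fits that leave out 1 library assume that the lone library of its group varies like the other group.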
